A study of Mus musculus with 23 samples.

Results

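The axoneme is the microtubule core of a motile cilium, and its genes were examined here in the mouse hippocampus. Genes were chosen by name: a symbol beginning with Cfap, Dnah, Dnai, Rsph or Drc followed by a digit, and a mean of at least 0.1 FPKM (fragments relative to the length of the transcript and to the whole library) over all 23 mice. Of the 19733 genes in the deposited table, 59 matched the name and 54 of these reached the minimum. These 54 were 33 Cfap, 12 Dnah, 6 Rsph and 3 Drc genes, and no symbol matched Dnai followed by a digit. Dynein intermediate chains appear in the table under other symbols, such as Wdr63 and Wdr78. The 5 genes left out were Rsph6a, Dnah7a, Dnah14, Dnah8 and Cfap97d1. The minimum fell among closely spaced values, with Rsph14 at 0.123 and Cfap221 at 0.125 FPKM just inside it and Rsph6a at 0.0961 and Dnah7a at 0.0926 FPKM just outside.

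The study asked whether urolithin A (UA), a gut microbial metabolite of plant polyphenols, alters the cognitive and social effects of chronic alcohol in mice. All mice were wild-type C57BL/6J males, 6 weeks old when acquired, that were kept on a liquid diet for 16 weeks followed by 1 week of behavioral tests. The 9 Ctrl mice received the control liquid diet, the 7 EtOH mice received the alcohol liquid diet, and the 7 EtOH-UA mice received the alcohol diet together with UA. The Ctrl and EtOH mice were gavaged with the vehicle, CMC-Na, and UA was also given by gavage. Each library is the hippocampus of 1 mouse, and mice are named by the numbers that head the columns of the deposited table.

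A motile cilium beats because dynein motors, attached to doublet microtubules in outer and inner arms, slide neighboring doublets past each other. Radial spokes, a central pair of microtubules and the nexin-dynein regulatory complex control which motors are active, and further proteins stiffen the doublets from inside. In the brain such cilia are carried mainly by the ependymal cells that line the ventricles, where they move cerebrospinal fluid. The epithelium of the choroid plexus, which secretes this fluid, is also ciliated. Neurons and astrocytes carry a primary cilium, which does not beat and has no dynein arms. In bulk tissue, fewer cells of a type and less RNA per cell cannot be told apart.

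Summed FPKM ranged from 327896 to 404609 over the 23 libraries, and 16996 to 17413 genes were above 0. No read counts were used here. From even steps between low values of 100 genes, 1 FPKM was worth about 16.7 fragments for each kilobase (quartiles 16 and 17.2). All 8 hippocampal neuron markers examined were above 0 in every mouse, with Neurod6, a factor of pyramidal neurons, at 71.3 to 133 FPKM. The 16 choroid plexus markers were above 0 in every mouse except Steap1, but their summed level ran from 10.1 to 3024 FPKM in Ctrl mice, 77.9 to 5865 in EtOH mice and 18.5 to 7934 in EtOH-UA mice. Of these Ttr, which encodes the carrier protein transthyretin, made up the most, at 3.88 to 2914, 58.4 to 5628 and 11.3 to 7705 FPKM in the same order. The 14 ependymal markers summed to 14.3 to 31.5 FPKM in Ctrl mice, 26.3 to 43.9 in EtOH mice and 18.9 to 44.1 in EtOH-UA mice, and Fam216b, Mia and Sntn among them were at 0 in some mice. Of 8 sperm markers, 5 were found in the table and each was at 0 in some mice, with Prm1 at most 0.33 FPKM.

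Most axonemal genes were expressed at a low level. The members' mean FPKM had a median of 0.957, against 7.59 over the 15986 genes that reached the same minimum. Their levels fell below 1 FPKM for 27 genes, between 1 and 10 for 21 and above 10 for 6, and 4 members were at 0 in at least 1 mouse. The dynein heavy chains, the motor subunits themselves, had the lowest medians by role, 0.426 FPKM for inner arms and 0.482 FPKM for outer arms. The 4 outer arm heavy chains had means from 0.15 to 2.06 FPKM and the 8 inner arm heavy chains from 0.158 to 0.902 FPKM. Their transcripts are long, so a low FPKM still rests on many fragments: Dnah5, with a longest transcript of 15637 bases, corresponded to about 142 fragments at its mean of 0.543 FPKM. The radial spoke gene Rsph14, at 0.123 FPKM, corresponded to about 3.57 fragments.

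The other roles had higher medians, although single genes such as Rsph14 and Cfap221 lay below every heavy chain. The 3 genes of the nexin-dynein regulatory complex had means of 5.71 (Drc1), 5.09 (Drc3) and 2.39 (Drc7) FPKM. The 8 radial spoke genes ranged from 0.123 to 14.5 FPKM and were led by Rsph9, a spoke head protein, at 14.5 and Rsph3b, of the spoke stalk, at 13.4. Rsph3b and Rsph3a, and likewise Dnah7b and Dnah7c, are near-identical copies between which the counting could divide reads, so the level of each alone is uncertain. The 7 central apparatus genes ranged from 0.125 to 7.84 FPKM, with Cfap74 (7.84) and Cfap69 (5.92) the most abundant.

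The 7 genes whose proteins lie inside the doublet ranged from 0.174 to 23.9 FPKM, with Cfap20 (23.9) and Cfap53 (2.04) leading. The 5 regulators that anchor dyneins on the doublet surface ranged from 0.232 to 3.87 FPKM, with Cfap100 (3.87) and Cfap44 (2.21) highest. Of the genes for dynein assembly, Cfap298 averaged 23.4 FPKM and Cfap300 7.53 FPKM. No role was assigned to 10 members, and these included the most abundant of all, Cfap36, at 62.4 FPKM. Cfap36, Cfap20, Cfap298, Cfap410 and Cfap97 had been listed as broad members, known also from cells without motile cilia: Cfap36 binds the small GTPase Arl3, and Cfap410 works with the kinase Nek1. The broad members took 4 of the 6 places above 10 FPKM.

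**Figure D1:**
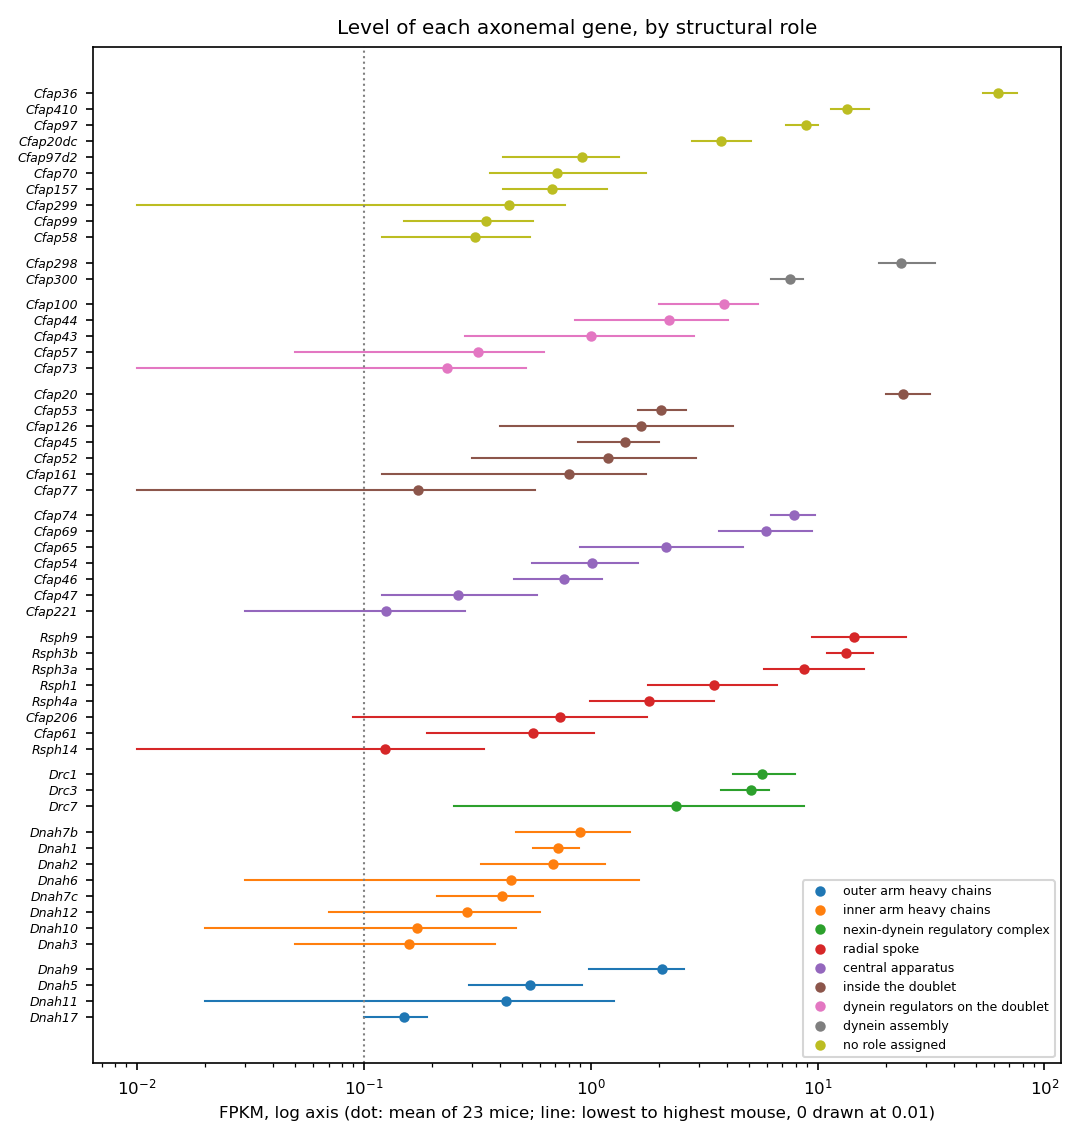
Mean FPKM over 23 mice (dots) of the 54 axonemal genes on a log axis, with lines from the lowest to the highest mouse, colored by structural role. Levels run from 0.123 FPKM (Rsph14) to 62.4 FPKM (Cfap36), and lines are short for abundant genes and for some low ones such as Dnah17 and Dnah1 but long for Dnah11, Dnah6 and Drc7.

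The promoters of these genes were searched for the sites of factors known to drive motile cilia. Regulatory factor X (RFX) proteins bind a palindrome of GTTNCC, any NN and GGNAAC, in which N is any base, or the short site GTTGCCA, which reads TGGCAAC on the other strand, and forkhead factors such as Foxj1 bind GTAAACA. RefSeq promoter windows on GRCm38.p6, from 250 bases before to 50 after a transcript start, were at hand for 44 members and were searched on both strands. The short site was found for 11 of the 44 members (25%), against 5.02% of all 27025 genes with a window. The palindrome was found for 2 of 44 (4.55%), Cfap298 and Cfap20dc, against 0.529% of all genes, and the forkhead site for 3 of 44 (6.82%), Cfap20, Cfap43 and Dnah17, against 4.05%. A palindrome can contain the short site, but that of Cfap298 does not. A match is a description of letters and not evidence of binding.

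Stretches that hold RFX letters before an annotated start are shown because they are the sequence feature that most members with a match shared. They come from the 4 most abundant members with a site among the leaders of each role, and from Cfap161 and Cfap44, chosen after their values were seen because they hold several sites. Capitals mark the palindrome or the short site, and each stretch reads 5′ to 3′ along the gene:
Cfap20, chr8:95434946-95434976, minus strand: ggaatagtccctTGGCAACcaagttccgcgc
Cfap298, palindrome, chr16:90935016-90935045, minus strand: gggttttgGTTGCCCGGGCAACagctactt
Cfap298, short site, chr16:90934893-90934921, minus strand: actgttgccccTGGCAACagccacttccg
Cfap74, chr4:155409192-155409220, plus strand: agcagccttccGTTGCCAtggagctgcgc
Cfap300, chr9:8042980-8043010, minus strand: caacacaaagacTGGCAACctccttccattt
Cfap161, chr7:83794861-83794918, minus strand: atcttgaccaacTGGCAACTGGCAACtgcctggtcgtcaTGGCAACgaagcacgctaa
Cfap44, chr16:44394657-44394797, plus strand: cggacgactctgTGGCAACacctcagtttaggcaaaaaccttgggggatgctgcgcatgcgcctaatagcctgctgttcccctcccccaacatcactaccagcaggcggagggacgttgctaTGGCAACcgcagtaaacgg
Cfap161 holds 3 short sites within 58 bases, and 2 of them abut. The Cfap74 and Cfap298 stretches overlap an annotated transcript, and the Cfap74 site lies after the start of another Cfap74 transcript. The Cfap161 stretch lies within the annotated span of its own gene (chr7:83775612-83798025). The second Cfap44 site lies after the point where the annotated span of that gene begins (chr16:44394742). The members shown differed in how their levels varied between mice: the highest mouse had 1.57 times the lowest for Cfap20 but 14.7 times for Cfap161.

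The first comparison asked how the alcohol diet went with the level of axonemal genes, and in it most of them averaged higher in EtOH than in Ctrl mice without any passing the test across all genes. The mean log2(FPKM + 0.1) was higher in EtOH mice for 45 of the 54 members, where 48.6% of all 15986 genes tested were higher. The median log2 fold change of the members was 0.30, against -0.003 over all genes. In limma, 0 members and 0% of all genes had an adjusted p under 0.05, and the lowest value of a member was 0.938. Without adjustment, 19 members were higher and 0 lower at a p under 0.05, against 1.95% and 1.1% of all genes. Of the 49 members that are not broad, 45 were higher, whereas all 5 broad members were lower, by a median log2 fold change of -0.05.

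The proteins inside the doublet held the largest differences by role, with a median log2 fold change of 0.83 and 6 of 7 genes higher. Cfap45, a filament inside the doublet that binds adenine nucleotides (chr1:172521130-172545870, GRCm38), read 0.88 to 1.83 FPKM (median 1.10) in Ctrl mice, 1.48 to 1.83 (median 1.68) in EtOH mice and 1.28 to 2.0 (median 1.3) in EtOH-UA mice. All 7 EtOH mice lay above the median of the Ctrl mice, and the groups overlapped because Ctrl mice 138 and 202 read 1.48 and 1.83. Its fold change was 1.42 on the log2(FPKM + 0.1) scale (log2 0.51, SE 0.12, limma adjusted p = 0.938, two-sided exact permutation p = 0.00297). In all, 102 exact tests were made on named members, and the limma adjusted p covers the number of genes. Members named for the smallest limma p in a comparison, here Cfap45, Cfap57 and Cfap52, were chosen on the same values. A small exact permutation p of such a member is therefore no separate support.

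Cfap52, which lies beside Cfap45 in the doublet, read 0.41 to 1.42 FPKM (median 0.64) in Ctrl mice, 0.91 to 2.91 (median 1.43) in EtOH mice and 0.30 to 1.60 (median 1.32) in EtOH-UA mice. EtOH mice again lay above the Ctrl median in 7 of 7 cases, and EtOH mouse 47 stood highest, while EtOH-UA mouse 141 was the lowest of all mice. The log2 fold change was 0.83 (SE 0.29, limma adjusted p = 0.999, exact permutation p = 0.0104). Cfap126, called Flattop, which positions basal bodies, read 0.40 to 2.03 FPKM (median 0.91) in Ctrl mice and 1.26 to 4.23 (median 2.02) in EtOH mice, with a log2 fold change of 1.07 (SE 0.37, limma adjusted p = 0.999, exact permutation p = 0.0180). Of the other genes inside the doublet, Cfap20 and Cfap53 differed by log2 fold changes of -0.06 (SE 0.07) and 0.02 (SE 0.10).

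Among dynein heavy chains, all 8 of the inner arm were higher in EtOH mice (median log2 fold change 0.43), as were 3 of the 4 of the outer arm (median 0.17). Dnah6, an inner arm heavy chain (chr6:73017603-73222227), read 0.06 to 0.65 FPKM (median 0.30) in Ctrl mice, 0.34 to 1.63 (median 0.50) in EtOH mice and 0.03 to 0.75 (median 0.46) in EtOH-UA mice. Ctrl mice 135, 138, 200 and 203 read between 0.06 and 0.10, and EtOH mouse 47 at 1.63 was apart from the next highest mouse at 0.75. The log2 fold change was 1.04 (SE 0.40, limma adjusted p = 0.999, exact permutation p = 0.0236).

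The outer arm heavy chains differed among themselves. Dnah11, named after its values were seen, read 0.02 to 0.58 FPKM (median 0.26) in Ctrl mice and 0.32 to 1.27 (median 0.47) in EtOH mice, and the ranges overlapped. Its log2 fold change of 1.07 (SE 0.41, limma adjusted p = 0.999) was about that of Dnah6. Dnah9 read 1.62 to 2.55 FPKM (median 2.01) in Ctrl mice and 1.53 to 2.55 (median 2.13) in EtOH mice, a log2 fold change of 0.09 (SE 0.15, exact permutation p = 0.447). For Dnah5 the levels were 0.30 to 0.77 FPKM (median 0.50) and 0.29 to 0.78 (median 0.70), a log2 fold change of 0.26 (SE 0.19, exact permutation p = 0.176). For Dnah9 and Dnah5 the range of the EtOH mice lay nearly within that of the Ctrl mice. Dnah17, better known from sperm tails, was within 0.10 to 0.19 FPKM in every mouse.

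In the regulatory structures between the doublets, the 3 nexin-dynein genes were apart from each other. Drc7 (chr8:95055103-95078141) read 0.25 to 3.79 FPKM (median 0.82) in Ctrl mice, 1.47 to 8.74 (median 2.21) in EtOH mice and 0.40 to 8.10 (median 2.14) in EtOH-UA mice. EtOH mouse 47 and EtOH-UA mouse 137 alone exceeded 8 FPKM, and Ctrl mice 135, 138, 200 and 203 lay at 0.40 or below. The log2 fold change was the largest of the members, 1.33, with an SE of 0.58 (limma adjusted p = 0.999, exact permutation p = 0.0444). Drc3 showed a small difference with little spread, at 3.77 to 5.40 FPKM (median 4.55) in Ctrl mice and 4.60 to 6.12 (median 5.42) in EtOH mice (log2 fold change 0.20, SE 0.08, limma adjusted p = 0.999, exact permutation p = 0.0264). Drc1, the scaffold of the complex, differed by a log2 fold change of 0.02 (SE 0.12, exact permutation p = 0.819).

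Radial spoke genes were higher for 7 of 8 (median log2 fold change 0.32), central apparatus genes for 7 of 7 (0.32) and dynein regulators on the doublet for 4 of 5 (0.54). The spoke head genes Rsph4a and Rsph1 had log2 fold changes of 0.53 (SE 0.20, exact permutation p = 0.0171) and 0.49 (SE 0.22, exact permutation p = 0.0322). Cfap206, which anchors spokes, read 0.09 to 0.89 FPKM (median 0.50) in Ctrl mice and 0.44 to 1.78 (median 0.83) in EtOH mice (log2 fold change 0.90, SE 0.32, exact permutation p = 0.0311). For each of Rsph4a, Rsph1 and Cfap206 the limma adjusted p was 0.999. Cfap57, of inner arm docking, read 0.05 to 0.32 FPKM (median 0.24) and 0.24 to 0.62 (median 0.37), a log2 fold change of 0.70 (SE 0.22, limma adjusted p = 0.999, exact permutation p = 0.00236). All the ranges of these 4 genes overlapped between the groups. Cfap43, which with Cfap44 tethers an inner arm dynein, read 0.28 to 1.41 FPKM (median 0.64) in Ctrl mice and 0.70 to 2.85 (median 0.96) in EtOH mice, all 7 above the Ctrl median (log2 fold change 0.62, SE 0.31, exact permutation p = 0.0869). Of the members that were lower, those with the smallest limma p were Cfap20dc at -0.13 (SE 0.10), Rsph3a at -0.14 (SE 0.13) and Cfap20, given above.

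**Figure D2:**
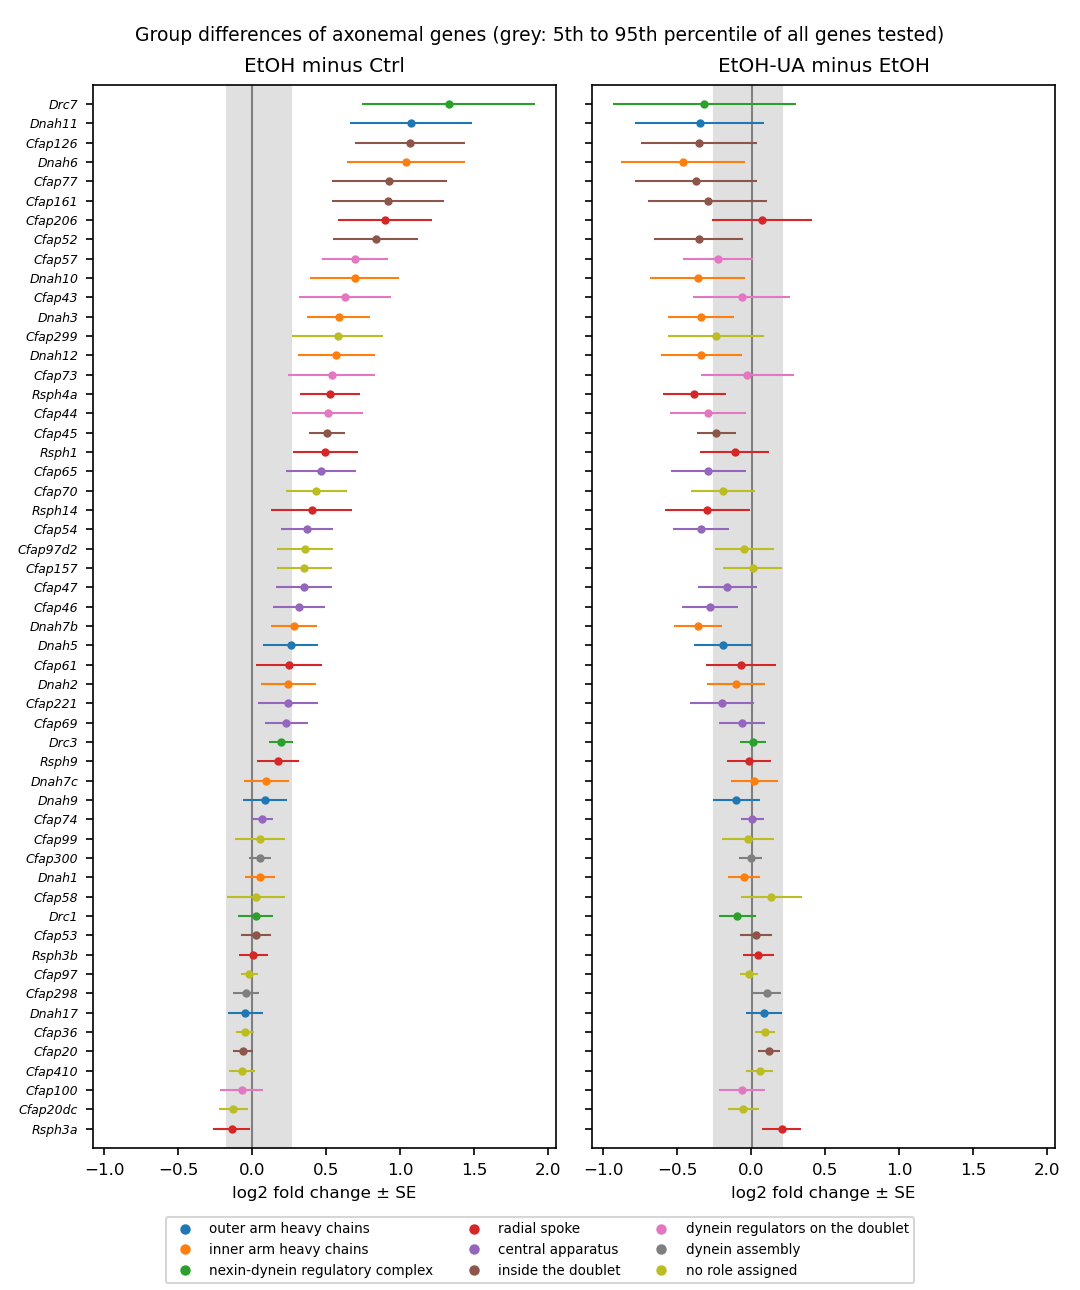
Log2 fold change of log2(FPKM + 0.1) with its standard error for each of the 54 members, EtOH minus Ctrl (left) and EtOH-UA minus EtOH (right), colored by role and ordered by the left panel, with both panels on the same axis. The grey band spans the 5th to the 95th percentile of all 15986 genes, -0.17 to 0.26 on the left and -0.25 to 0.21 on the right, and 45 of 54 members lie to the right of 0 on the left while 40 of 54 lie to the left of 0 on the right.

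Other lists of the same biology were set beside the members. Of the axonemal genes with other names 46 of 52 tested were higher in EtOH mice, 25 of them at an unadjusted p under 0.05, and the median log2 fold change was 0.40. The most abundant of these were Dnal1, a dynein light chain, with a log2 fold change of 0.08 (SE 0.07), and Gas8, of the nexin-dynein complex, with 0.05 (SE 0.06). Ciliogenesis regulators were higher for 8 of 9 (median 0.29), among them Foxj1, the master regulator of motile cilia, at 0.73 (SE 0.33), and Rfx3 at 0.20 (SE 0.17). Dynein preassembly factors were higher for 7 of 10 (median 0.13), although the most abundant, Dnaaf2, was at -0.05 (SE 0.05). Genes of intraflagellar transport and the BBSome, which primary cilia also need, were higher for 22 of 31 but by a median of 0.04, with Kif3a, a motor of this transport, at 44.3 ± 1.93 FPKM in Ctrl (SD, n = 9) and 46.8 ± 3.20 in EtOH mice (SD, n = 7).

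Markers of the ependyma and of the choroid plexus differed in the same direction. Ependymal markers were higher in EtOH mice for 13 of 14, 9 at an unadjusted p under 0.05, with a median log2 fold change of 0.72, and choroid plexus markers for 16 of 16, 3 at an unadjusted p under 0.05, with a median of 1.66. Hippocampal neuron markers were higher for 4 of 8 (median 0.03), and the 5 thalamic markers for 4 (median 0.12), while the single sperm marker tested, Prm1, had -0.41. None of these genes passed an adjusted p under 0.05 in limma. The ependymal list shares 6 genes with the axonemal genes of other names, 1 with the regulators and 1 with the preassembly factors, and shares none with the members. With the ependymal score of each mouse (the mean log2 deviation of the 14 markers from their means over all mice) as a covariate, the members' median log2 fold change was 0.02 and 1 member had an unadjusted p under 0.05. With the choroid plexus score as a covariate that count was 4. At least 6 of the 14 ependymal markers are themselves axonemal genes, and Foxj1 and Zmynd10 also serve motile cilia. The ependymal covariate therefore also removes variation that axonemal genes share. For that reason this covariate cannot separate these genes from the tissue. The part of dissection, cell number and RNA per cell in these differences was not tested.

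The count of 19 members with an unadjusted p under 0.05 depended on single mice. It was 11 without EtOH mouse 183, Ctrl mouse 135 or Ctrl mouse 203, 12 without EtOH mouse 47 or Ctrl mouse 200, and 28 without EtOH mouse 189. The number of members higher in EtOH mice was between 42 and 45 when any 1 mouse was left out.

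The second comparison asked how UA given with alcohol went with these levels, and 40 of the 54 members averaged lower in the EtOH-UA mice than with alcohol alone, by small amounts. The other 14 were higher, against 51.2% of all genes. The median log2 fold change was -0.10, against 0.003 over all genes. It was -0.03 without EtOH-UA mouse 141, -0.04 without EtOH mouse 47, -0.15 without EtOH-UA mouse 179 and -0.16 without EtOH mouse 189. In the limma fit 0 members and 0% of all genes passed an adjusted p under 0.05, and without adjustment 0 members were higher and 1 lower at a p under 0.05, against 1.83% and 1.45% of all genes. By role, 7 of the 8 inner arm heavy chains (median -0.34) and all 5 regulators on the doublet surface (median -0.07) were lower, whereas 4 of the 5 broad members were higher (median 0.09). The EtOH mice serve in this comparison and in the previous one, so a high mean of that group enters both with opposite sign. Without EtOH mouse 47 or without EtOH-UA mouse 141 the number of higher members was 22.

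By limma p the lower members were led by Dnah7b, an inner arm heavy chain, then Cfap45 and Rsph4a. It read 0.79 to 1.49 FPKM (median 1.04) in EtOH mice and 0.47 to 1.23 (median 0.77) in EtOH-UA mice, and 6 of the 7 EtOH-UA mice lay below the EtOH median. Its log2 fold change was -0.36 (SE 0.16, limma adjusted p = 0.900, exact permutation p = 0.0670), and its near copy Dnah7c differed by 0.02 (SE 0.16). Cfap45 had -0.24 (SE 0.13, limma adjusted p = 0.900) and the smallest exact permutation p of these 3 members, p = 0.0303. Rsph4a had -0.38 (SE 0.21, exact permutation p = 0.152).

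For Cfap45, 5 of the 7 EtOH-UA mice lay between 1.28 and 1.31 FPKM, below all EtOH mice, and mice 139 and 178 at 2.0 and 1.57 lay among or above them. By limma p the higher members were led by Cfap20, Rsph3a and Cfap36, with log2 fold changes of 0.12 (SE 0.07), 0.21 (SE 0.13) and 0.09 (SE 0.07). EtOH-UA mouse 137 was the highest mouse for each of these 3 genes, and without it these values were 0.07 for Cfap20, 0.07 for Rsph3a and 0.05 for Cfap36. Without EtOH mouse 192 that of Rsph3a was 0.13. On the log2 scale choroid plexus markers averaged lower in EtOH-UA mice for 16 of 16 (median -0.49) and ependymal markers for 12 of 14 (median -0.16). On the FPKM scale the choroid plexus sum averaged higher, at 2198 ± 2843 in EtOH-UA mice (SD, n = 7) against 1980 ± 1947 in EtOH mice (SD, n = 7), so its direction depended on the scale. Axonemal genes with other names were higher for 9 of 52 (median -0.12), regulators for 3 of 9 (median -0.05), preassembly factors for 4 of 10 (median -0.007) and transport genes for 16 of 31 (median 0.0005).

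In the third comparison, EtOH-UA against Ctrl mice, 47 of 54 members were higher, against 51.2% of all genes, with a median log2 fold change of 0.16. With any 1 mouse left out this median ranged from 0.09, without EtOH-UA mouse 179, to 0.22, without EtOH-UA mouse 141. In limma 0 members and 0% of all genes passed an adjusted p under 0.05. At an unadjusted p under 0.05 there were 4 members higher, Drc3, Cfap206, Cfap45 and Cfap57, and 0 lower, against 1.56% and 1.52% of all genes. All 7 genes inside the doublet (median 0.48) and all 8 radial spoke genes (median 0.15) averaged higher. Cfap206 read 0.55 to 1.43 FPKM (median 0.79) in EtOH-UA mice, and all 7 lay above the Ctrl median of 0.50 (log2 fold change 0.97, SE 0.32, limma adjusted p = 0.999, exact permutation p = 0.0160). Drc3 read 4.67 to 6.13 FPKM (median 5.55) in EtOH-UA mice, again above the Ctrl median in 7 of 7 (log2 fold change 0.21, SE 0.08, limma adjusted p = 0.999, exact permutation p = 0.0238). Ependymal markers were higher for 14 of 14 (median 0.43) and choroid plexus markers for 16 of 16 (median 1.15). Axonemal genes with other names were higher for 42 of 52 (median 0.24), regulators for 9 of 9 (0.27), preassembly factors for 8 of 10 (0.13) and transport genes for 20 of 31 (0.05). With the ependymal score, itself made partly of axonemal genes, as a covariate, 26 members were higher and the median was -0.008. The Ctrl mice serve here and in the first comparison.

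**Figure D3:**
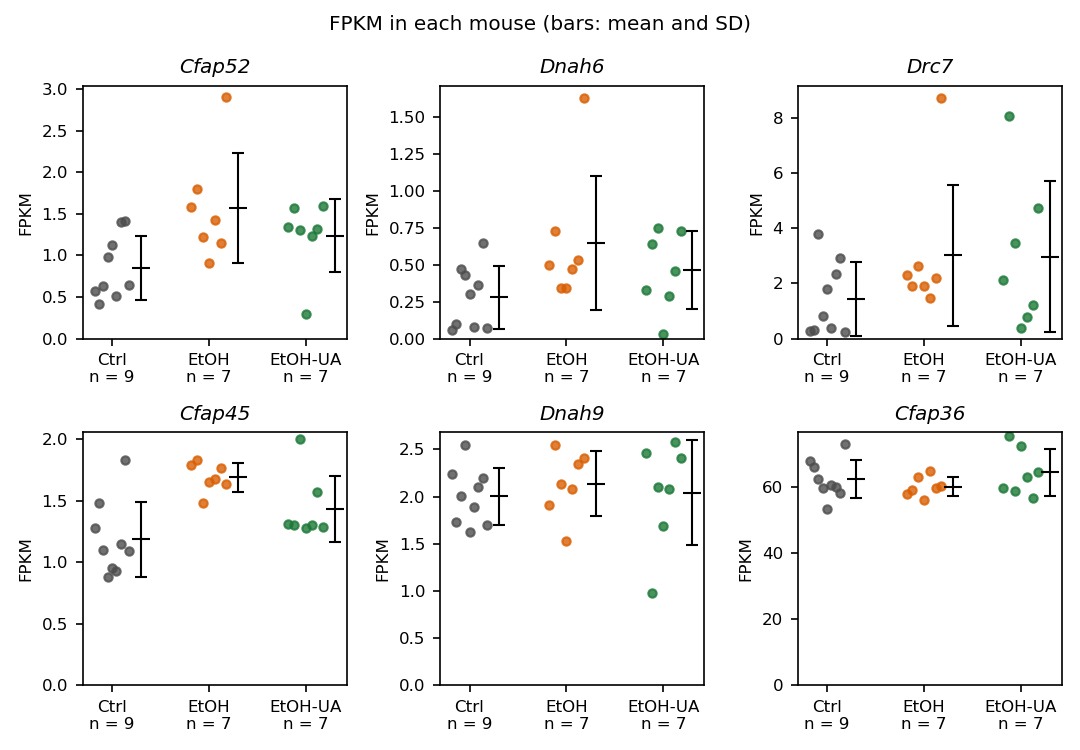
FPKM in each mouse for 6 members, with the group mean and SD beside the points (9 Ctrl, 7 EtOH and 7 EtOH-UA mice, each axis starting at 0). Cfap52, Dnah6 and Drc7 spread widely with EtOH mouse 47 at the top (2.91, 1.63 and 8.74 FPKM), Cfap45 lies within a narrow range in EtOH mice (1.48 to 1.83), and Dnah9 and Cfap36 overlap fully between groups.

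Between mice of the same group the axonemal genes varied more than genes at large. The residual SD of log2(FPKM + 0.1) within groups had a median of 0.377 over the members and 0.189 over all genes tested. Over all genes this SD depended on level, from 0.399 between 0.1 and 1 FPKM to 0.140 above 10, so members were set beside genes of their own level. Among genes of 1 to 10 FPKM the members' median SD was 0.310, against 0.195 over 6063 genes, and 17 of the 21 members lay above the median of the class. Above 10 FPKM the members had 0.180, with 5 of 6 members above the median. Between 0.1 and 1 FPKM members had a median of 0.410, and 14 of 27 lay above the median of the class.

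Drc7, Cfap126 and Cfap43 had the largest SDs among members of at least 1 FPKM, at 1.26, 0.797 and 0.664. The ratio of the highest to the lowest mouse, over all groups, was 63.5 for Dnah11, 54.3 for Dnah6 and 35.0 for Drc7. The ratios of Dnah11 and Dnah6 are imprecise, since they divide by 0.02 and 0.03 FPKM in values given to 2 decimals. The 4 members at 0 in some mouse have no ratio. At the other end the ratio was 1.38 for Cfap300 and for Cfap97 and 1.41 for Cfap36, and Cfap97 had the smallest SD, 0.110. Cfap161, Dnah10, Dnah12, Dnah3 and Cfap54 are also named after their values were seen.

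The variable members tended to be high or low in the same mice. EtOH mouse 47 was the highest of all 23 mice for 20 members, EtOH-UA mouse 137 for 10, and EtOH-UA mouse 139 and EtOH mouse 183 for 7 each. Mouse 137 was not high throughout: it was also the lowest for 6 members and lay above the median of all mice for 25 of the 54. EtOH-UA mouse 141 was the lowest for 14 members and Ctrl mouse 203 for 13. The mean log2 deviation of the 54 members was 0.57 in EtOH mouse 47, -0.51 in EtOH-UA mouse 141 and -0.58 in Ctrl mouse 203. In Ctrl mice 135, 138 and 200 it lay between -0.38 and -0.35, and in the other 5 Ctrl mice between -0.12 and 0.15. The pooled SD of this mean within groups was 0.256. Summed over the 49 members that are not broad, levels were 93.0 to 112 FPKM (median 101) in Ctrl, 107 to 144 (median 113) in EtOH and 96.7 to 140 (median 112) in EtOH-UA mice, and the groups overlapped.

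The 5 mice at the low end also had the lowest ependymal sums of all 23 mice, and low choroid plexus sums. Choroid plexus markers summed to 10.1, 63.6, 19.2 and 16.2 FPKM in Ctrl mice 135, 138, 200 and 203 and to 18.5 in EtOH-UA mouse 141, and ependymal markers to 16.8, 18.9, 18.9, 14.3 and 18.9 FPKM in the same order. In EtOH mouse 47 these sums were 5865 and 38.0 FPKM. Choroid plexus and ependymal levels did not always go together: EtOH mouse 183 had 77.9 FPKM of choroid plexus markers beside 43.9 of ependymal markers, and Ctrl mouse 144 had 3024 beside 24.3. In EtOH mouse 183 the members' mean deviation was 0.35 and in Ctrl mouse 144 it was 0.04. Ctrl mouse 198 and EtOH-UA mouse 142, with 58.0 and 60.7 FPKM of choroid plexus markers, had mean deviations of 0.01 and -0.06.

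**Figure D4:**
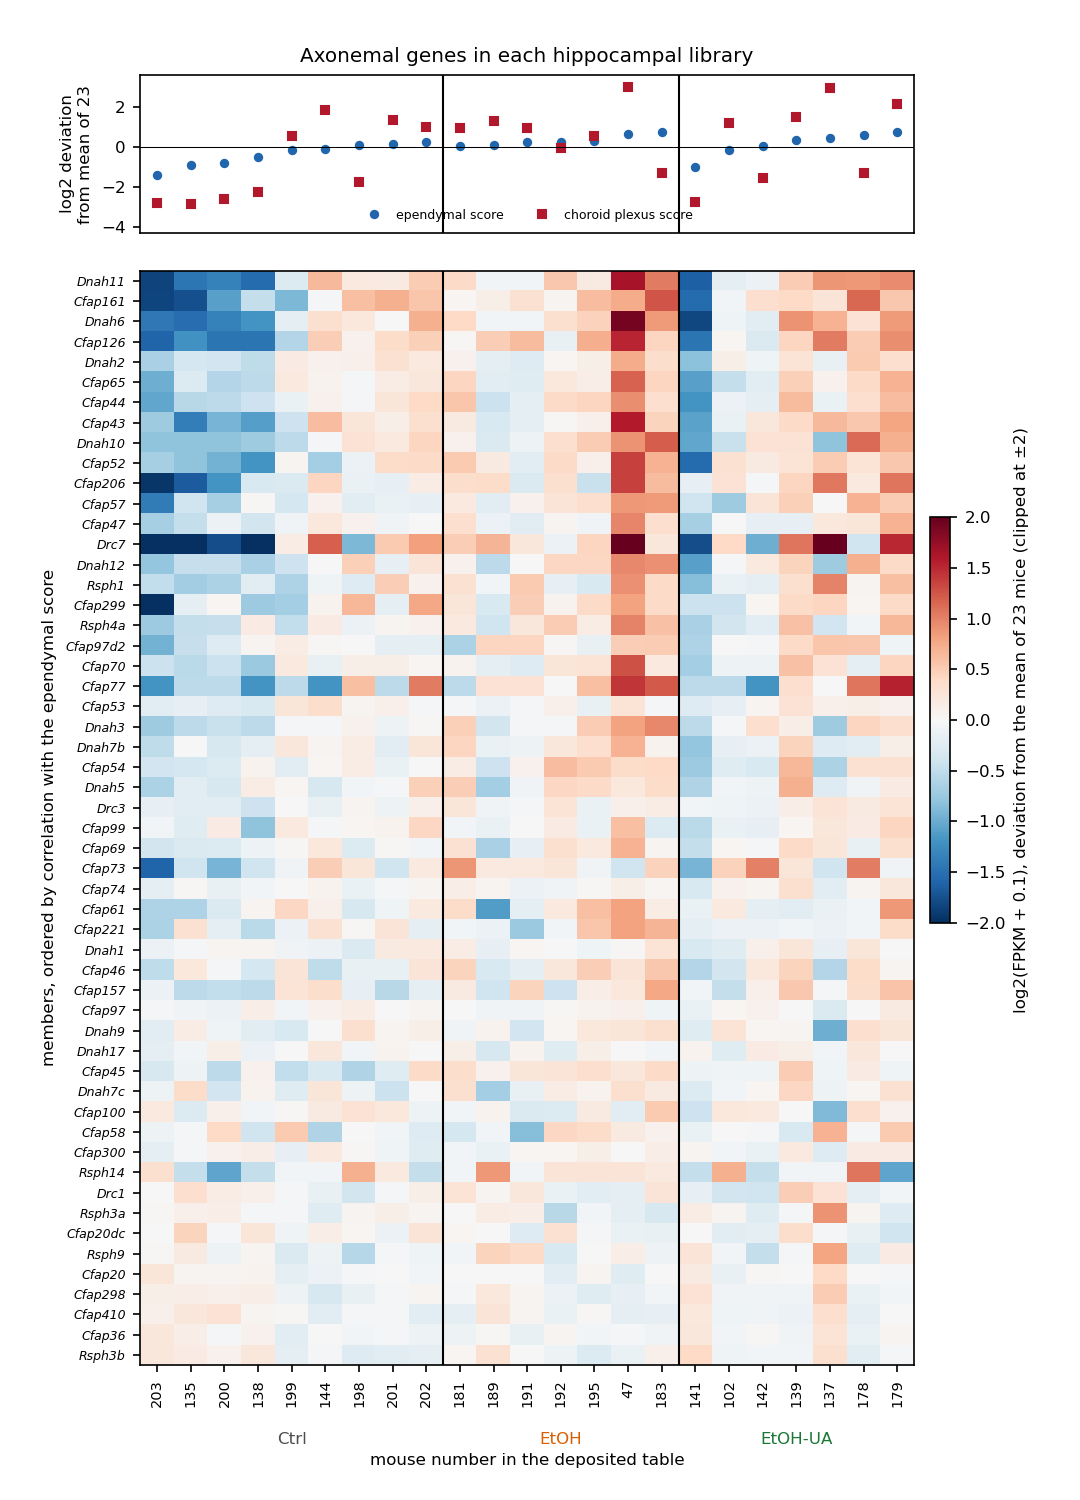
Deviation of log2(FPKM + 0.1) from the mean of 23 mice for each of the 54 members (rows, ordered by correlation with the ependymal score) in each library (columns, in the order of the ependymal score within a group), with both marker scores above. EtOH mouse 47 is red and EtOH-UA mouse 141 and Ctrl mice 203, 135, 200 and 138 are blue over the upper rows, while the lowest rows, with Cfap36 and Rsph3b, are pale in most mice.

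For 6 members the relation to other genes was tested over the 23 mice, with group means removed and 100000 permutations within groups, against Foxj1 and against Ttr. Dnah6 had a Pearson's r of 0.917 with Foxj1 and Cfap126 one of 0.920 (Spearman's rho 0.882 and 0.906), each with a permutation p of 1e-05, the smallest these permutations can give, and 4e-05 after Benjamini-Hochberg adjustment over the 12 relations. Without the 2 mice farthest from the median of Foxj1 these r were 0.891 and 0.896. For Cfap43, r was 0.891 (rho 0.897, adjusted permutation p = 4e-05, 0.879 without the 2 mice). For Rsph1, r was 0.812 (rho 0.780, adjusted permutation p = 6e-05, 0.722 without the 2 mice).

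For Dnah5 and Drc1 the relation did not reach an adjusted p under 0.05, though Dnah5 and Drc1 differed in size. The r of Dnah5 with Foxj1 was 0.408 (rho 0.232, permutation p = 0.0686, adjusted 0.0914, 0.338 without the 2 mice), and that of Drc1 was 0.0156 (rho -0.0326, permutation p = 0.954, adjusted 0.954), with a change of sign to -0.165 without the 2 mice. With Ttr the same 4 members had r of 0.782 for Cfap126, 0.706 for Dnah6, 0.667 for Rsph1 and 0.623 for Cfap43, with rho of 0.773, 0.716, 0.665 and 0.633 and adjusted permutation p of 0.00036, 0.0013, 0.00142 and 0.00503. Without the 2 mice farthest from the median of Ttr the r were 0.726, 0.596, 0.567 and 0.470. Dnah5 and Drc1 had r of 0.285 and 0.0481 with Ttr (rho 0.215 and 0.0148, adjusted permutation p = 0.238 and 0.916, 0.156 and 0.142 without the 2 mice).

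Over all members the relation to the marker scores is given as a description, across 23 mice that share their library, depth and dissection between the genes compared. Pearson's r with the ependymal score was above 0.5 for 30 of 54 members (55.6%), against 10.7% of all genes, and above 0.8 for 7 members, against 0.394% of all genes. It was below 0.3 for 17 members, and Dnah5 had 0.563. At least 6 of the 14 markers in the ependymal score are axonemal genes under other names, and Foxj1 and Zmynd10 also serve motile cilia. A high r of members with this score is thus partly built in and is no independent measure of a cell type. With the choroid plexus score r was above 0.5 for 17 members (31.5%), against 5.72% of all genes. The 2 scores were themselves correlated with each other (r 0.617).

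Some members leaned to one score. Drc7 had an r of 0.961 with the choroid plexus score and 0.737 with the ependymal score. Dnah10 had 0.200 and 0.771, Dnah12 0.205 and 0.728, Cfap57 0.252 and 0.758, and Cfap161 0.453 and 0.914, in the same order. Dnah10 and Dnah12 also went with transcript length and summed FPKM, as did the ependymal score to a lesser extent, with values given below. Dnah9, Cfap45 and Drc1 followed neither, with 0.269, 0.216 and -0.0115 for the ependymal score. The broad members Cfap36, Cfap410, Cfap298 and Cfap20 were negative for both, from -0.527 to -0.390 with the ependymal score, and so was Rsph3b (-0.641), whereas the broad member Cfap97 had 0.344.

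**Figure D5:**
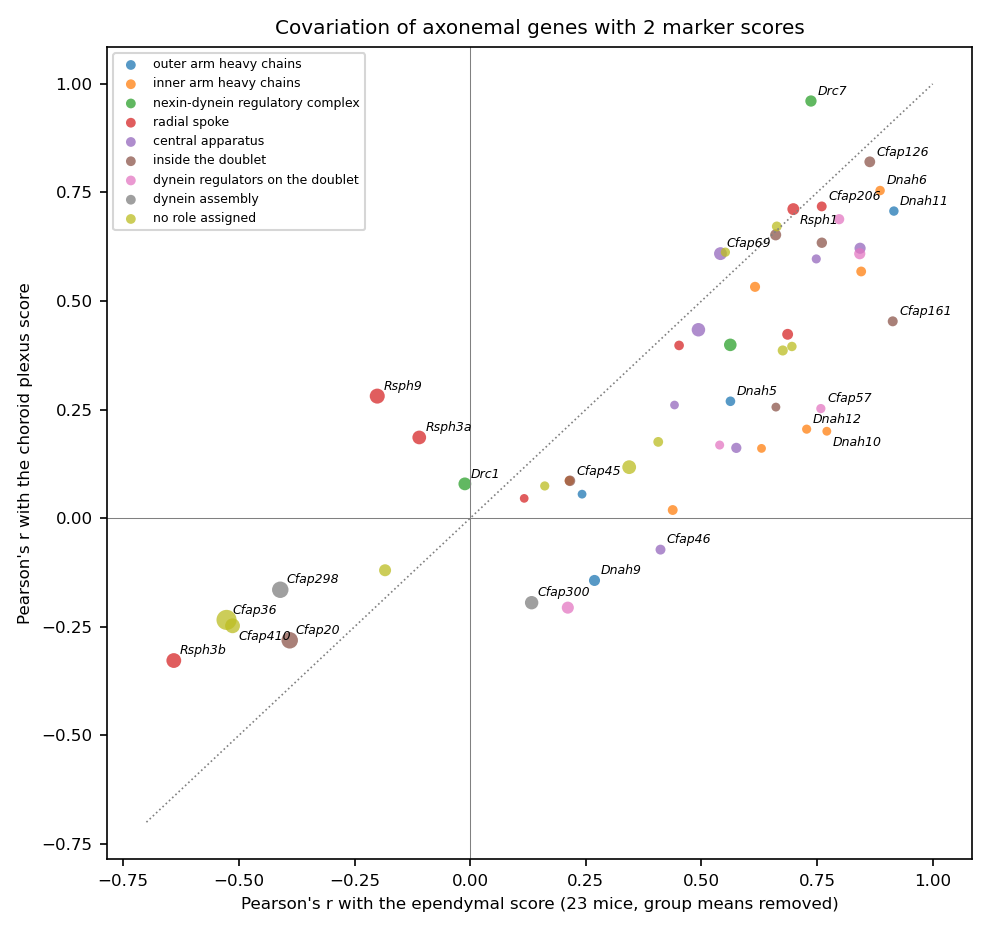
Pearson's r of each member with the ependymal score (horizontal axis) and the choroid plexus score (vertical axis) over 23 mice with group means removed, colored by role, with larger points for higher mean FPKM and a dotted line where both are equal. Dnah11, Cfap161, Dnah6 and Cfap126 lie at the right, Drc7 above the line at 0.961 on the vertical axis, and Cfap36, Cfap20, Cfap298 and Rsph3b at the lower left.

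Members of the same structure did not covary to the same extent. The median pairwise r within groups of mice was 0.636 over the 28 pairs of inner arm heavy chains and 0.593 over the 21 pairs of central apparatus genes. For radial spoke genes it was -0.006 over 28 pairs. With the ependymal score Rsph9, Rsph3a and Rsph3b had r from -0.641 to -0.110, and Rsph1, Rsph4a and Cfap206 from 0.686 to 0.760. Over all 1431 pairs of members the median pairwise r was 0.294. The levels of many members also went with transcript length across libraries, as given next.

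Transcript length and the summed FPKM of a library moved with some of these values. In each library the slope of a gene's log2 deviation on its log2 transcript length was taken over 12743 genes, and it was lowest in EtOH-UA mouse 137 (-0.271), EtOH-UA mouse 141 (-0.162) and EtOH mouse 189 (-0.117). Summed FPKM were highest in the same 3 libraries, at 404609, 379518 and 366930. With this slope Pearson's r was 0.798 for Dnah12, 0.796 for Dnah3, 0.788 for Cfap54 and 0.694 for Dnah9, and -0.927 for Cfap298, -0.818 for Rsph3b and -0.774 for Rsph3a. Inner arm heavy chains had r from 0.328 (Dnah1) to 0.798, central apparatus genes from 0.321 (Cfap221) to 0.788 and radial spoke genes from -0.818 to 0.633 (Rsph4a). The ependymal score itself had r of 0.459 with the slope and -0.475 with summed FPKM, and Dnah10 had 0.724 and -0.737. The part of length in the correlations between members or with the marker scores was not tested. Dnah9 was at its lowest, 0.98 FPKM, and Rsph3a at its highest, 16 FPKM, in EtOH-UA mouse 137. The slope averaged 0.03 in EtOH mice, -0.03 in EtOH-UA mice and -0.0004 in Ctrl mice, and its part in the group differences was not tested beyond its use as a covariate. With it as a covariate 0 members passed an adjusted p under 0.05 in each comparison.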

How the data were processed

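Hippocampal RNA of 23 mice was sequenced, 1 library per mouse. Per the labels, the authors filtered reads and used HISAT2 2.1.0, Bowtie2 2.2.5, RSEM 1.2.8, StringTie and DESeq, and the methods describe alignment to mm10 and quantification by RSEM. The methods give other versions of Bowtie2 and RSEM than the labels. They name poly(A)+ RNA, whereas the labels name total RNA. The deposited values are FPKM to 2 decimals, which the authors had corrected for transcript length and library size. They are no counts, so no count test was run, and steps between low values gave the depth. Precision at the lowest levels is limited by few fragments per gene.

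The name of each column gave its group. After a filter at a mean of 0.1 FPKM, log2(FPKM + 0.1) was modelled in limma 3.58.1 (R 4.3.3) with all 3 groups in a single fit, moderated by eBayes with a trend on level, and p-values were adjusted by Benjamini-Hochberg over all 15986 genes. The scripts were tested on simulated data. For single members, exact permutation tests (two-sided) ran over 3432 splits (EtOH-UA against EtOH) or 11440 splits (against Ctrl). Other steps used Python 3.11.15, numpy 2.4.6, scipy 1.17.1 and matplotlib 3.10.9. Gene coordinates and promoters come from RefSeq on GRCm38 and transcript lengths from GENCODE.

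The members, roles and gene lists were chosen with earlier results of these data known. Named members were the 2 most abundant of each role, the 3 with the smallest limma p in each direction of each comparison, the broad members, the 6 used for correlations, those next to the 0.1 FPKM limit, the 3 most variable of at least 1 FPKM and near-identical copies, and from each list the 2 most abundant genes. Others named were chosen after their values were seen. Alternatives were a pseudocount of 1 or 0.01, other filters, scalings, weights and fits, a choroid plexus covariate and each mouse left out. Protein sequences, and the list genes Pih1d3, Tnp1, Akap4 and Ldhc, were not analysed here.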

Additional observations from a re-analysis of the deposited data

Results flagged for a closer look

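For the 34 named members, each group's highest and lowest mouse was judged by its gap to the nearest other mouse, divided by the range of the group, on the log2(FPKM + 0.1) scale. Of 102 groups of values 9 had a gap beyond Dixon's critical value, where about 1 in 20 groups, or 5.1, would by chance. That figure is only a rough guide. Some members were named for their large SD, and members were often high or low in the same mice, so the groups are not independent.

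EtOH mouse 47 stood apart as the highest of its group for Drc7 (8.74 FPKM against 2.64 in the next mouse, gap 0.678 of the range) and Cfap43 (2.85 against 1.24, gap 0.605). EtOH-UA mouse 141 stood apart as the lowest for Cfap52 (0.30 FPKM against 1.23, gap 0.830) and Dnah6 (0.03 against 0.29, gap 0.585). Ctrl mouse 203 was the lowest for Cfap57 (0.05 FPKM against 0.15, gap 0.496).

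Rsph3a was apart in EtOH-UA mouse 137 as the highest (16 FPKM against 9.48, gap 0.646) and in Ctrl mouse 144 as the lowest (7.24 against 8.32, gap 0.532). The remaining values belong to genes with few fragments, Cfap221 in EtOH-UA mouse 179 (0.18 FPKM against 0.11, gap 0.742) and Rsph14 in EtOH mouse 189 (0.28 against 0.15, gap 0.652).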

How the results depend on the processing

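No member passed an adjusted p under 0.05 in any comparison under any alternative run, and the smallest adjusted p among 18 named differences was 0.135. Of the 489 values of these differences under the alternatives, 484 kept their direction, but sizes moved. With a pseudocount of 1 and with the ependymal covariate, in that order, Cfap52 had 0.46 and 0.19 and Cfap57 0.21 and 0.22 in EtOH against Ctrl, and Cfap206 had 0.39 and 0.45 in EtOH-UA against Ctrl. With the length covariate Rsph3a, Cfap20 and Cfap36 had 0.07, 0.05 and 0.04 in EtOH-UA against EtOH. The changes of direction were Cfap20 in EtOH against Ctrl mice, at 0.014 with the ependymal score as a covariate, and in EtOH-UA against Ctrl mice Cfap100 (0.065) and Cfap97 (0.033) with array quality weights and, without EtOH-UA mouse 137, Cfap100 (0.0024) and Cfap97 (0.0055). With any 1 mouse left out these ranged from -0.20 to 0.0024 and from -0.071 to 0.0055.

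The number of all genes called was 1 in EtOH against Ctrl with array quality weights and with the length slope as a covariate, 1 in EtOH-UA against Ctrl with the ependymal covariate, and between 0 and 1 in each comparison with a mouse left out (1 without Ctrl mouse 203, EtOH-UA mouse 178 or EtOH-UA mouse 179). With the ependymal covariate the members' median in EtOH against Ctrl was 0.016, and the members higher were 23 in EtOH-UA against EtOH and 26 in EtOH-UA against Ctrl. With a mouse left out they ranged from 10 to 22 in EtOH-UA against EtOH. Members with an unadjusted p under 0.05 in EtOH against Ctrl ranged from 11 to 28 with a mouse left out and were 4 with the choroid plexus and 1 with the ependymal covariate. The within-group SD had a median of 0.173 with a pseudocount of 1, a setting that shrinks low genes. The r of Drc1 with Foxj1 was -0.165 without the 2 mice farthest from the median. The cause of these changes was not tested unless stated. The ependymal and length covariates and the count at an unadjusted p were chosen after seeing the data. No paired analysis was possible because the columns carry mouse numbers and not the replicate numbers of the labels, and the planned replicate block was not run. The replicate numbers also mark no known pairs, since the labels count them separately within each group. The paper states that mice were assigned to groups at random and gives no matching of single mice between groups.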
